A study of Homo sapiens with 27 samples.

Results

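The 36 genes described here cover cholesterol and fatty acid synthesis and its control by the SREBP transcription factors. They were chosen by name as enzymes of the mevalonate, sterol and fatty acid routes, as parts of the SREBP machinery, or as carriers and regulators of sterol transport. They stand among 58721 genes of a table of read counts. All 36 matched an Ensembl identifier through GENCODE release 29, all are protein-coding, and all passed the filter on low counts that left 25199 genes to be tested. The table covers 9 groups of 3 RNA-seq libraries, 27 in all, from A375 cells, which are human melanoma cells driven by mutant BRAF. The TADA2B knockout cells were made with guide RNA 1 or guide RNA 2 against TADA2B, a subunit of the histone-acetylating complex SAGA, and control cells carried a guide against GFP, which targets no human gene. Each population was kept for 24 h in trametinib at 20 nM, which blocks the kinase MEK, in vemurafenib at 1 µM, which blocks mutant BRAF, or in the solvent DMSO. All groups share the BRAF-mutant A375 background and 1 culture medium, DMEM with FBS. The labels do not say whether knockout populations were single clones or pools. They also leave unsaid whether a group's libraries stem from different cultures, so the p-values speak only of spread among libraries, part of which may be technical.

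Cholesterol is made from acetyl-CoA through mevalonate, farnesyl diphosphate, squalene and lanosterol, and fatty acids are made from the same cytosolic acetyl-CoA. When sterols in the endoplasmic reticulum run low, the escort protein SCAP carries SREBP precursors to the Golgi, where they are cleaved. The released factors switch on most genes of both routes. INSIG1 and INSIG2 hold SCAP back when sterols are plentiful. When sterols accumulate, the oxysterol-sensing LXR receptors raise the exporters ABCA1 and ABCG1, the ubiquitin ligase MYLIP and SREBF1. SREBP2, encoded by SREBF2, is known mainly for sterol genes and SREBP1, encoded by SREBF1, for fatty acid genes. Both usually act beside the factors NF-Y, which binds CCAAT, and SP1.

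RefSeq promoter windows, each running from 250 bases before to 50 bases after a start site on GRCh38.p14, were found for 31 of the 36 genes, with 41 windows in all. ABCG1, ACAT2, FASN, FDFT1 and SQLE had none in the table used. The letters CCAAT, searched on both strands, occurred in 27 of the 41 windows (65.9%), against 34.6% of all 35116 windows of the same length. Those windows were not selected by gene type or expression, whereas the 36 genes are all protein-coding and expressed enough to be tested. Counted by gene, 23 of 31 held at least 1 match in some window and 15 held at least 2 in a single window, against 39.7% and 12.9% of all genes in the table. The windows of MVK and NSDHL had 5 matches each, and that of MSMO1 had 4. The letters TCACNCCAC, a form of the sterol regulatory element that SREBPs bind, occurred in 1 window, that of SREBF2 itself, against 1.13% of all windows. GGGCGG, the SP1 box, occurred in 36 of 41 (87.8%) against 45%. Matches can share letters, as in NSDHL, where a CCAAT on 1 strand overlaps one on the other. A match is a string of letters and not a measured binding site. The lack of a match says only that these letters are not in the window. Shown here are the window of SREBF2, which held both motifs, windows of HMGCS1, DHCR7 and STARD4, 3 genes that fell with both drugs, and the window of TM7SF2, which rose. Of 2 windows for HMGCS1 and for DHCR7, the one with more CCAAT matches is given. Capitals mark the matches to CCAAT or its complement and, in SREBF2 alone, to TCACNCCAC. The SREBF2 window is chr22:41832855-41833154 on the plus strand, that of HMGCS1 is chr5:43313363-43313662 on the minus strand, that of DHCR7 is chr11:71448344-71448643 on the minus strand, that of STARD4 is chr5:111512486-111512785 on the minus strand and that of TM7SF2 is chr11:65111622-65111921 on the plus strand, each printed 5′ to 3′ along the gene.
SREBF2: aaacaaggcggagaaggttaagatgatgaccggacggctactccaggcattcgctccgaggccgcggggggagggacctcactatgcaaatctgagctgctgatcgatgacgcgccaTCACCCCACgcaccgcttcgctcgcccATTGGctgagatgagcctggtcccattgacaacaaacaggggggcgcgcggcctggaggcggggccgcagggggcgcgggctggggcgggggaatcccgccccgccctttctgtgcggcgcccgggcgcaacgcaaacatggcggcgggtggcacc
HMGCS1: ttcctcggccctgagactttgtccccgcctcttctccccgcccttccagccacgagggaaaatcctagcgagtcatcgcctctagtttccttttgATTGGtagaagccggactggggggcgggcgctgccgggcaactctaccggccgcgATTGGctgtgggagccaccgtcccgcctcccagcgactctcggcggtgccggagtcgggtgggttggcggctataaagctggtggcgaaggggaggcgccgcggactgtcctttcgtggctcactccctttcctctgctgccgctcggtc
DHCR7: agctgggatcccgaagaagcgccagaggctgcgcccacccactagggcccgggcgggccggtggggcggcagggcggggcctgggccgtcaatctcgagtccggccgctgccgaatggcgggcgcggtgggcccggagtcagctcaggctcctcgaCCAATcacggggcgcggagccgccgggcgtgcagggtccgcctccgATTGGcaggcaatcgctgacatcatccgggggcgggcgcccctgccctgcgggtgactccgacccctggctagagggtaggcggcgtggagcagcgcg
STARD4: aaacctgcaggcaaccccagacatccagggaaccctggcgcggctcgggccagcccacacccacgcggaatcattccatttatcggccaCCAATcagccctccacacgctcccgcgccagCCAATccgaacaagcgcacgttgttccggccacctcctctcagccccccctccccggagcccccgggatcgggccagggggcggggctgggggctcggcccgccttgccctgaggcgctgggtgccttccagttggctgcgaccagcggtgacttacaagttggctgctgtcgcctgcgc
TM7SF2: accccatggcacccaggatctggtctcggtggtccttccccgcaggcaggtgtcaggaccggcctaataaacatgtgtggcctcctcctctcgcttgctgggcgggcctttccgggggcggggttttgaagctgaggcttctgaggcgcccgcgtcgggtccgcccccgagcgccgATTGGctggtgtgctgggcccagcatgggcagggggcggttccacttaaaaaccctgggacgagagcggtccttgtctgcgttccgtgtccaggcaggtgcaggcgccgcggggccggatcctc

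**Figure D1:**
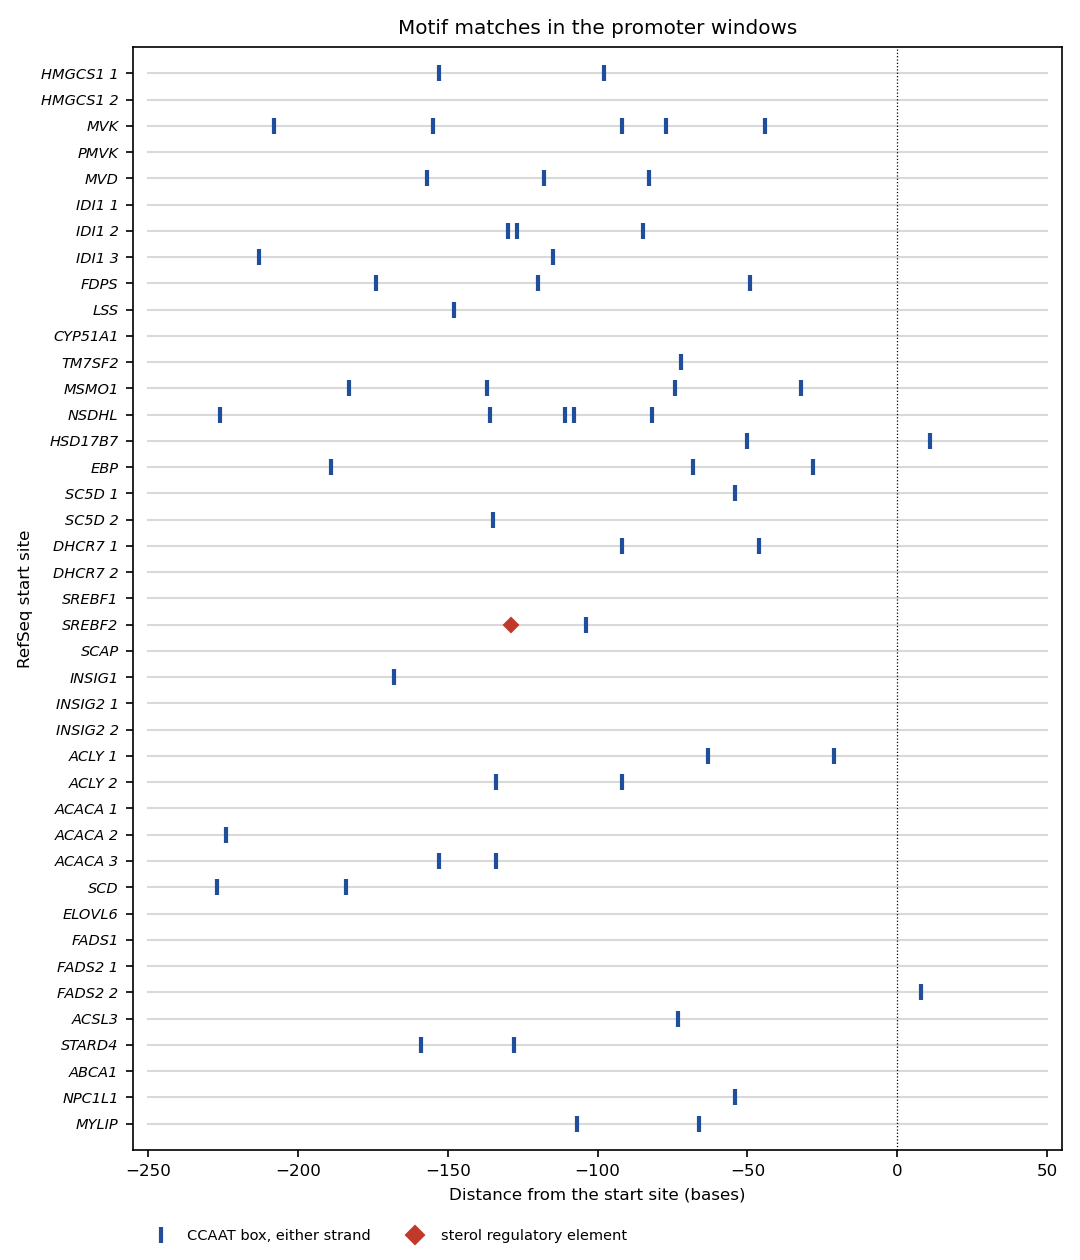
Each line is 1 RefSeq start site of 1 of the 31 genes, the horizontal axis gives the distance from that start site in bases, bars mark CCAAT in either direction and the diamond marks the sterol regulatory element. Matches to CCAAT occurred in 27 of the 41 windows, and the sterol element in the SREBF2 window alone.

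Library totals lay between 67502300 and 92513726 counts, and the 36 genes took 0.346% to 0.501% of them. Within every group any 2 libraries differed beyond sampling noise, so none was counted as a repeat of another. Replicate 3 of guide 2 in vemurafenib stood apart from its group, with counts that gave a chi-square of 13.2 and 8.92 for each degree of freedom against the other 2 libraries, where all other pairs within groups lay between 3.05 and 8.81. SREBF1 had 302, 296 and 246 CPM in replicates 1, 2 and 3 of that group. Counts among the 36 genes that rest on this library are also given without it, where both guides are averaged or compared. Counts with each guide alone against control, and counts of other gene lists, are given only with it. The melanocyte factors SOX10 and MITF were present in every group, with SOX10 between 274 CPM (counts scaled to library size) on average with guide 2 in DMSO and 1099 CPM in control cells given vemurafenib. The pigment genes PMEL, MLANA, TYR and TYRP1 stood at 2.17 CPM or less on average in all groups, near absent. Lists of markers of other cell types were detected through a few genes each. The 6 keratinocyte markers summed to 44.7 to 63.6 CPM over all libraries, mostly KRT10 (38.3 to 53.1 CPM by group), with KRT1 at 0 throughout. The 5 hepatocyte markers summed to 36.4 to 43.7 CPM in knockout libraries and 6.42 to 8.80 CPM in control libraries, mostly SERPINA1, with ALB at 0.0595 CPM or less by group. The 6 leukocyte markers summed to 13.5 to 36.5 CPM in knockout libraries and 7.29 to 17.3 CPM in control libraries, mostly LYZ, the 6 fibroblast markers to 37.2 to 81.8 and 16.3 to 21.9 CPM, mostly LUM and COL1A1, and the 4 adipocyte markers to 0.582 to 1.72 and 0.409 to 0.86 CPM. DUSP6, which MAPK signalling drives, averaged 1.05 CPM with trametinib and 13.8 CPM with vemurafenib, against 147 CPM in DMSO, in control cells. TADA2B itself averaged 30.4 ± 0.773 CPM with guide 1 and 28.6 ± 1.21 CPM with guide 2, against 31.2 ± 0.931 CPM in control cells in DMSO. It averaged 34.9 ± 0.778 and 29.3 ± 0.535 CPM, against 41.3 ± 1.27 CPM, in trametinib. In vemurafenib it averaged 32.6 ± 1.05 and 28.5 ± 0.88 CPM, against 43.8 ± 1.37 CPM. The transcript level does not check the knockout, since an edited gene can keep its RNA.

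Per length of exon, 4 fatty acid genes were the most abundant of the 36 in control cells in DMSO. SCD, the desaturase that makes monounsaturated fatty acids, stood at 206 ± 2.95 RPKM (SD, n = 3; counts scaled to exon length and library size), followed by FASN, the fatty acid synthase, at 126 ± 2.59 RPKM, ACLY, which makes cytosolic acetyl-CoA, at 101 ± 0.499 RPKM and ACSL3, which activates long-chain fatty acids, at 66.2 ± 1.32 RPKM. The most abundant sterol gene was FDFT1, the squalene synthase, at 36.2 ± 1.29 RPKM. SREBF1 at 31.0 ± 0.542 RPKM stood above SREBF2 at 25.6 ± 0.386 RPKM, and INSIG1 at 22.8 ± 0.588 RPKM above INSIG2 at 3.34 ± 0.246 RPKM. Neighbours in the middle of this order, such as MSMO1, SQLE and IDI1 between 13.4 and 13.6 RPKM, did not differ beyond their SD. NPC1L1, an intestinal sterol uptake protein, had 1 to 28 counts in a library and is near absent. CYP51A1, the lanosterol demethylase, is uncertain, since 79.3% of its exon length is shared with another gene on the same strand and its pseudogene copy CYP51A1P2 held 46% as many counts. HSD17B7 is uncertain for its copy HSD17B7P2 (20.5% as many counts). ACAT2, FADS1, FADS2, FDPS, MVK, SREBF1 and STARD4 share part of their exons with a gene of the other strand that had at least 10% as many counts, and the strand setting of the counting is not given in the sources used here. FADS2 and TM7SF2 share 49 and 16 bases of exon with FEN1 and VPS51 on their own strand.

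Trametinib lowered 25 of the 36 genes in control cells and raised 4, while 7 did not pass the test (edgeR's quasi-likelihood test, adjusted p under 0.05 over all genes). Of all 25199 genes tested, 32.5% were called lower and 36.4% higher, and the median log2 fold change was -0.40 over the 36 genes and 0.06 over all. Vemurafenib lowered 24 of the 36 genes and raised 6, against 31.6% and 35.7% of all genes, with medians of -0.43 and 0.06. The drug groups share their DMSO libraries, so the values for both drugs are not independent of each other. Over the same comparisons all 16 genes of a cell cycle list fell, with a summed level of 469.6 to 488 CPM with trametinib and 536 to 542 CPM with vemurafenib, against 3451 to 3513 CPM in DMSO. The summed level of 8 melanocyte lineage genes was 2235 to 2369 CPM with trametinib and 2312 to 2346 CPM with vemurafenib, against 1004 to 1075 CPM in DMSO. Mitochondrial reads made up 2.05% to 2.38% and 2.21% to 2.34% of counts with trametinib and vemurafenib, against 1.58% to 1.68% in DMSO. The part of these shifts in the lipid gene values was not tested, and in bulk RNA fewer cells of a state and less RNA per cell cannot be told apart.

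**Figure D2:**
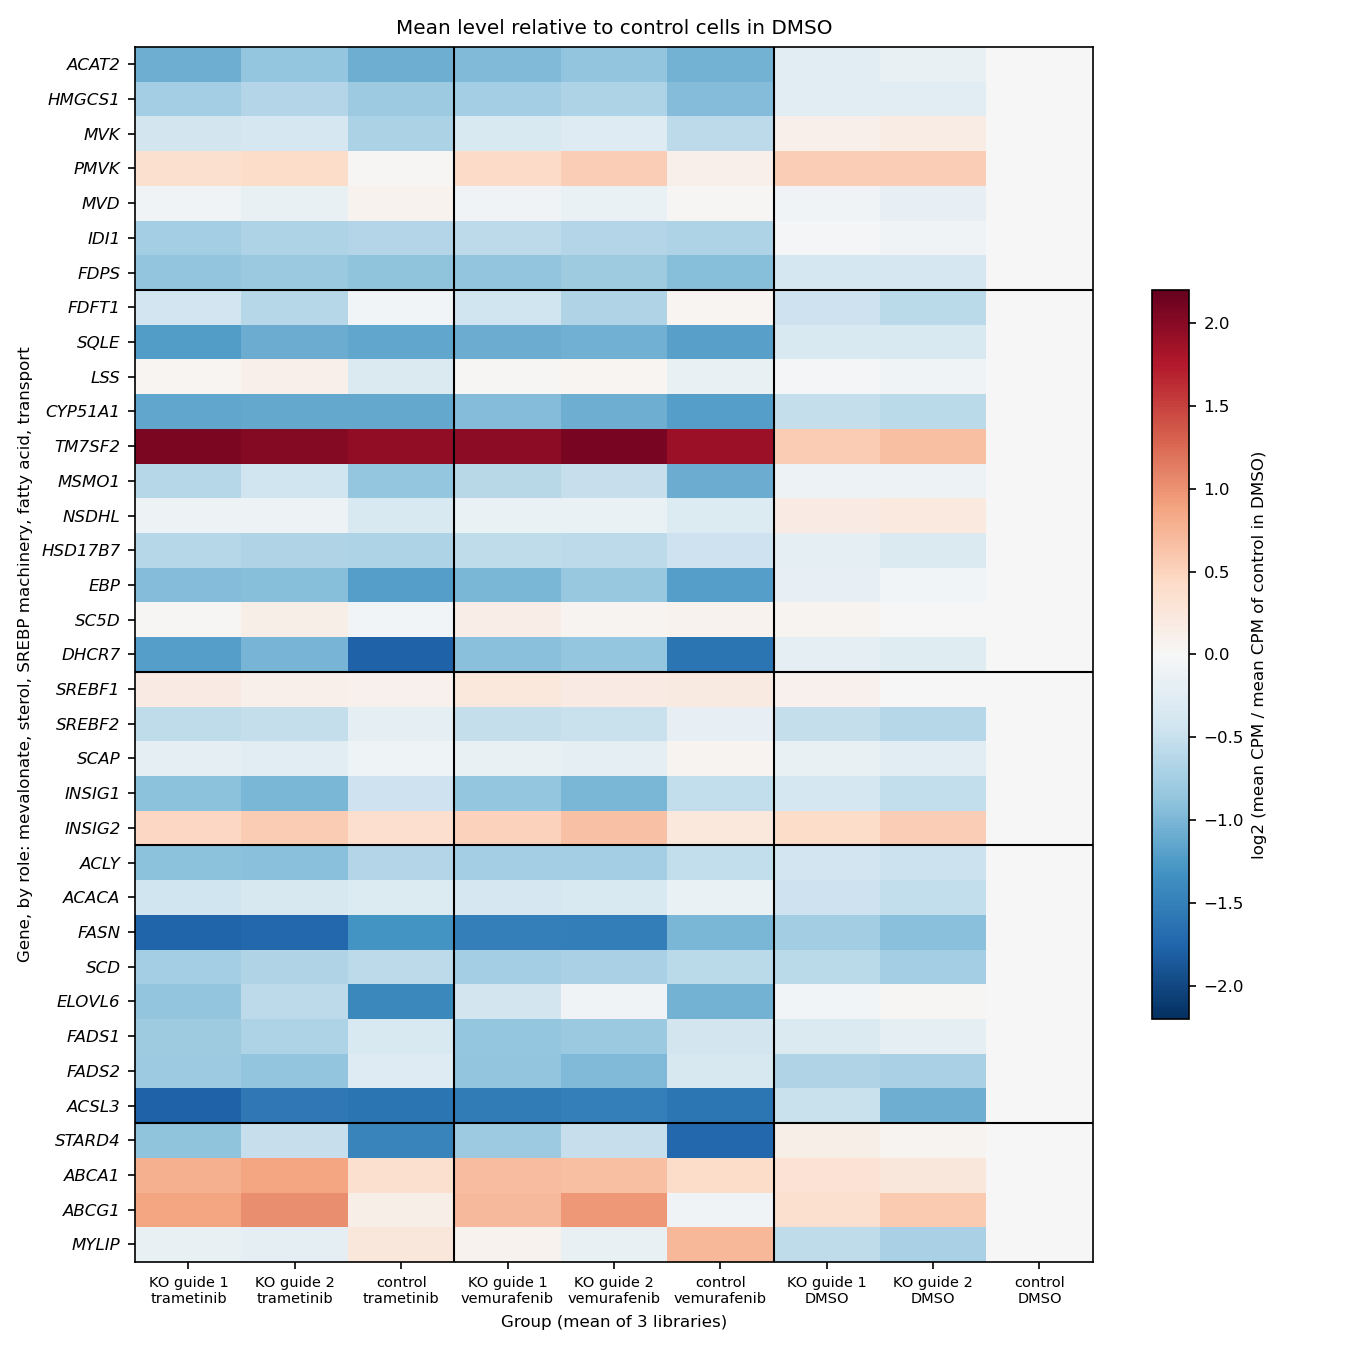
Colour gives the log2 ratio of the mean CPM of each group (3 libraries) to the mean of control cells in DMSO, for 35 genes in rows by role and 9 groups in columns; NPC1L1 is left out for its low counts. Columns of cells given a drug are blue for most synthesis genes and red for TM7SF2, INSIG2 and ABCA1, and the DMSO columns of knockout cells are blue for FASN, SCD, SREBF2 and FDFT1.

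In the mevalonate steps, 5 of 7 genes fell with each drug in control cells. ACAT2, the thiolase that joins acetyl-CoA units, had 19.8, 19.8 and 20.9 CPM in the 3 trametinib libraries and 21.2, 18.5 and 21.6 CPM in the vemurafenib libraries, against 40.3, 40.7 and 45.7 CPM in DMSO (trametinib log2 -1.07 ± 0.057, adjusted p = 5.71e-22). HMGCS1 (ENSG00000112972, chromosome 5, 43289395 to 43313512, minus strand, GRCh38), the HMG-CoA synthase, had 26.9, 26.4 and 24.2 CPM with trametinib and 23.2, 22.6 and 23.8 CPM with vemurafenib, against 46.9, 44.4 and 43.2 CPM in DMSO (vemurafenib log2 -0.95 ± 0.049, adjusted p = 8.58e-23). For both genes every drug library lay below every DMSO library. FDPS, the farnesyl diphosphate synthase, fell to 50.8 ± 0.624 CPM with trametinib and 49.0 ± 1.03 CPM with vemurafenib, against 93.4 ± 4.01 CPM in DMSO (SD, n = 3). MVK, the mevalonate kinase, and IDI1, the isopentenyl diphosphate isomerase, fell as well, by 0.70 and 0.64 on the log2 scale with trametinib. The kinase PMVK and the decarboxylase MVD did not follow: with trametinib PMVK had log2 0.03 ± 0.049 (adjusted p = 0.65) and MVD 0.08 ± 0.063 (adjusted p = 0.288). PMVK was called with vemurafenib at 0.12 ± 0.049, a call lost in 3 alternative fits and 4 of the fits that left out 1 library (adjusted p up to 0.15).

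From squalene to cholesterol, 8 of 11 genes fell with each drug and 1 rose. DHCR7 (ENSG00000172893, chromosome 11, 71428193 to 71452868, minus strand), which makes cholesterol in the final step, had 28.3, 26.1 and 29.5 CPM with trametinib and 32.9, 30.4 and 31.3 CPM with vemurafenib, against 91.0, 97.4 and 99.8 CPM in DMSO. It was 3.44-fold lower with trametinib (log2 -1.78 ± 0.042, adjusted p = 2.16e-36) and 3.05-fold lower with vemurafenib, with no overlap of libraries. The squalene epoxidase SQLE, a control point of the route, fell to 26.4 ± 0.442 and 25.5 ± 1.82 CPM, against 58.1 ± 2.54 CPM in DMSO. The sterol isomerase EBP fell to 28.1 ± 0.539 and 28.3 ± 0.525 CPM, against 65.5 ± 0.895 CPM. MSMO1, a methylsterol oxidase, fell by 0.86 with trametinib and 1.09 with vemurafenib on the log2 scale. LSS, NSDHL, HSD17B7 and CYP51A1 fell by 0.32, 0.33, 0.68 and 1.13 with trametinib. The squalene synthase FDFT1 and the sterol desaturase SC5D did not pass the test with either drug. Single alternatives called FDFT1 lower with trametinib (log2 -0.09, adjusted p = 0.0274) and higher with vemurafenib (log2 0.07, adjusted p = 0.0207). SC5D was called higher with vemurafenib in 2 of the fits that left out 1 library (adjusted p 0.0246 to 0.0397). TM7SF2 (ENSG00000149809, chromosome 11, 65111845 to 65116384, plus strand), a sterol reductase of the endoplasmic reticulum, moved the other way, with 31.8, 28.0 and 32.4 CPM with trametinib and 28.97, 31.6 and 27.9 CPM with vemurafenib, against 7.56, 8.55 and 7.75 CPM in DMSO. It was 3.86-fold higher with trametinib (log2 1.95 ± 0.065, adjusted p = 4.2e-30) and 3.70-fold higher with vemurafenib.

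In the SREBP machinery, called changes were at most 0.55 on the log2 scale in either direction. SREBF2 had 174, 157 and 177 CPM with trametinib and 174, 173 and 166 CPM with vemurafenib, against 190.0, 194 and 195 CPM in DMSO (trametinib log2 -0.19 ± 0.037, adjusted p = 1.14e-05). SREBF1 had 265, 256 and 279 CPM with trametinib and 285, 296 and 278 CPM with vemurafenib, against 246, 248 and 254 CPM in DMSO. It was called with vemurafenib (log2 0.20 ± 0.051) and not with trametinib (adjusted p = 0.0948), though 3 alternative fits (adjusted p 0.00313 to 0.0179) called it higher with trametinib too. INSIG1, itself an SREBP target, had 60.3, 60.4 and 61.3 CPM with trametinib and 58.3, 54.2 and 58.4 CPM with vemurafenib, against 80.9, 84.9 and 84.3 CPM in DMSO, a fall of 0.46 and 0.55 on the log2 scale. INSIG2 rose by 0.36 and 0.23. SCAP was called lower with trametinib at -0.09 ± 0.04, a call lost in 3 alternative fits and 4 of the fits that left out 1 library (adjusted p up to 0.282), and it had 0.06 ± 0.04 with vemurafenib (adjusted p = 0.15), where 1 alternative fit (adjusted p = 0.0191) called it higher.

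All 8 fatty acid genes fell with each drug in control cells. FASN (ENSG00000169710, chromosome 17, 82078333 to 82098332, minus strand) had 468, 449 and 500.2 CPM with trametinib and 592, 610.2 and 566 CPM with vemurafenib, against 1167, 1210 and 1168 CPM in DMSO, 2.50-fold and 2.01-fold lower. ACSL3 had 159, 159 and 155 CPM with trametinib and 164, 150.3 and 165 CPM with vemurafenib, against 471, 478 and 489.5 CPM in DMSO (trametinib log2 -1.60 ± 0.032, adjusted p = 1.23e-39). ELOVL6, which lengthens the saturated product of FASN, had 34.5, 33.8 and 32.7 CPM with trametinib and 43.3, 43.6 and 43.6 CPM with vemurafenib, against 89.5, 89.7 and 90.3 CPM in DMSO (trametinib log2 -1.42 ± 0.037, adjusted p = 8.47e-35). In all 3 genes every drug library lay below every DMSO library. SCD had 743, 731 and 736 CPM with trametinib and 755, 718 and 713 CPM with vemurafenib, against 1087, 1119 and 1101 CPM in DMSO (trametinib log2 -0.58 ± 0.027, adjusted p = 2.7e-24). ACLY fell by 0.64 and 0.55 on the log2 scale, and ACACA, which makes malonyl-CoA, by 0.30 and 0.15. The desaturases of polyunsaturated fatty acids, FADS1 and FADS2, fell by 0.34 and 0.29 with trametinib.

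Among genes of sterol transport, STARD4, a soluble carrier of cholesterol, had 17.3, 17.2 and 13.7 CPM with trametinib and 12.9, 12.7 and 14.4 CPM with vemurafenib, against 45.4, 43.5 and 43.4 CPM in DMSO, a 2.74-fold and 3.30-fold fall (vemurafenib log2 -1.72 ± 0.10, adjusted p = 6.51e-13). The exporter ABCA1 had 76.7, 75.2 and 74.6 CPM with trametinib and 75.9, 78.5 and 80.1 CPM with vemurafenib, against 59.8, 60.0 and 56.8 CPM in DMSO, and rose by 0.36 and 0.41 on the log2 scale. MYLIP, which marks lipoprotein receptors for degradation, had 28.4, 28.7 and 28.6 CPM with trametinib and 38.2, 40.4 and 41.3 CPM with vemurafenib, against 24.4, 23.8 and 23.8 CPM in DMSO (vemurafenib log2 0.74 ± 0.045, adjusted p = 6.63e-20). The exporter ABCG1 was not called with trametinib (log2 0.13 ± 0.062, adjusted p = 0.0611) or vemurafenib (-0.07 ± 0.063, adjusted p = 0.327). It was called higher with trametinib in 2 alternative fits and 2 of the fits that left out 1 library (adjusted p 0.0123 to 0.043). Of 54 further genes of the same pathways, 51 were tested, and 20 rose and 23 fell with trametinib, against 36.4% and 32.5% of all genes, with a median log2 of -0.0037. ELOVL2, an elongase of polyunsaturated fatty acids, fell to 0.197 CPM on average with trametinib and 0.312 CPM with vemurafenib, against 4.04 CPM in DMSO. It stood at a low level in each group. Of 7 tested LXR genes, 6 rose with trametinib and 5 with vemurafenib, against 36.4% and 35.7% of all genes.

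**Figure D3:**
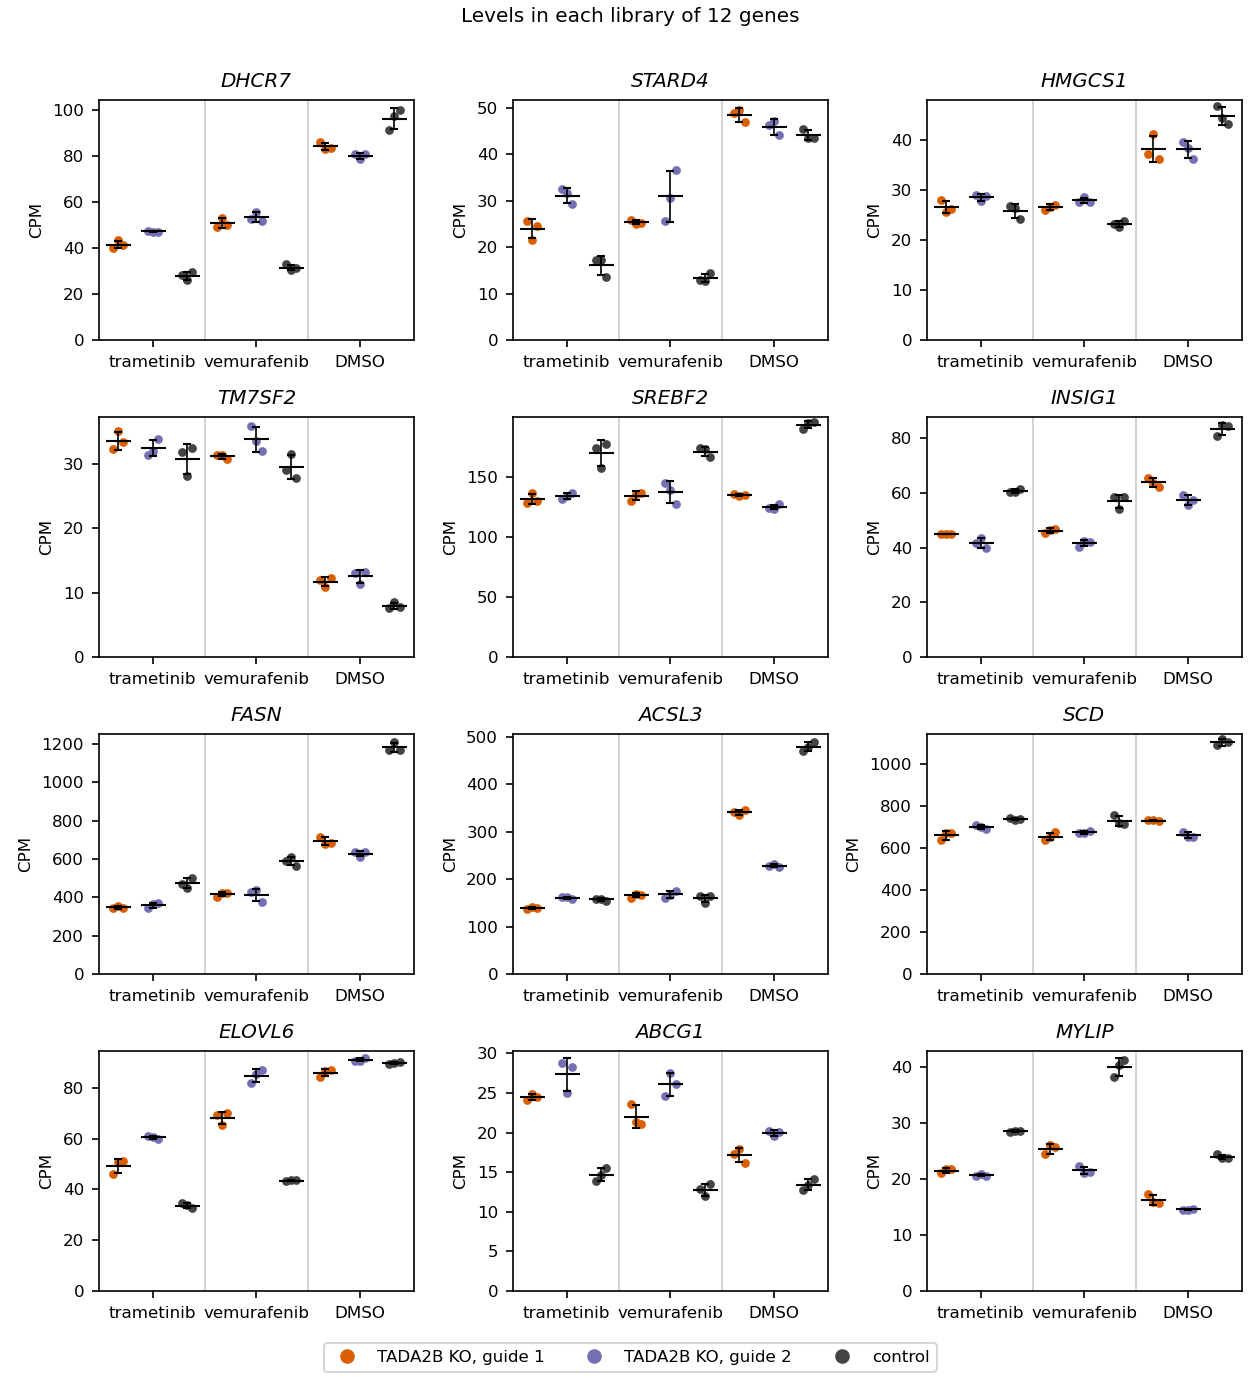
Points are CPM in each of the 27 libraries for 12 genes, ordered by treatment and, within a treatment, as guide 1, guide 2 and control; dashes and bars give the mean and SD of 3 libraries, and every vertical axis starts at 0. FASN, ACSL3 and SCD stand highest in control cells in DMSO, and TM7SF2 is at 27.9 CPM or more in every drug library and at 13.3 CPM or less in every DMSO library.

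Set against trametinib, vemurafenib left 10 of the 36 genes higher and 3 lower in control cells, against 8.78% and 7.56% of all genes. A list of 8 MAPK output genes, DUSP6 among them, summed to 673 to 736 CPM with vemurafenib and 347 to 366 CPM with trametinib. The part of this difference in the lipid gene values was not tested. ELOVL6 was 1.29-fold higher (log2 0.37 ± 0.037, adjusted p = 4.79e-11). FASN was 1.25-fold higher (log2 0.32 ± 0.042, adjusted p = 3.09e-07), both with every vemurafenib library above every trametinib library. MYLIP was 1.40-fold higher, ACACA, SCAP, LSS, DHCR7 and HSD17B7 were higher by 0.15 to 0.22 on the log2 scale, and FDFT1 and ACLY by 0.09 each. MSMO1 was lower by 0.23, ABCG1 by 0.20 and HMGCS1 by 0.16. Several of these small differences rest on single libraries, and FDFT1, ACLY, HSD17B7, HMGCS1, ABCG1, LSS, DHCR7 and SCAP each lost the call in at least 1 alternative. Without replicate 2 of control cells in trametinib, 5 genes were called higher, and without replicate 2 of control cells in vemurafenib, 1 was called lower. The remaining 23 genes did not pass the test, which does not show that the drugs acted alike on them. Of these, alternatives called SREBF1 higher in 2 fits, INSIG1 lower in 2 fits, and STARD4 lower in 2 fits and without 1 library. SC5D was called higher without 1 library. Adjusted p of these gained calls was 0.01292 to 0.03965.

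Without drug, TADA2B knockout cells had 22 of the 36 genes lower and 7 higher than control cells (mean of both guides), against 28.6% and 29.3% of all genes tested, with a median log2 fold change of -0.21 over the 36 genes and 0.00 over all. Called with each guide alone in the same direction were 19 lower and 6 higher genes, against 22% and 23.4% of all genes. The summed level of the 16 cell cycle genes was 2251 to 2255 CPM with guide 1 and 2371 to 2398 CPM with guide 2, against 3451 to 3513 CPM in control cells. That of the 8 melanocyte lineage genes was 553 to 567 and 344 to 361 CPM, against 1004 to 1075 CPM. Mitochondrial reads made up 2.33% to 2.74% and 2.5% to 2.67%, against 1.58% to 1.68%. The 8 MAPK output genes summed to 2596 to 2646 CPM with guide 1 and 2081 to 2143 CPM with guide 2, against 2746 to 2803 CPM in control cells. Lists of other cell types moved as well: the 6 fibroblast markers summed to 37.2 to 38.2 and 45.3 to 48.6 CPM, against 16.3 to 17.2 CPM, and the 5 hepatocyte markers to 37.0 to 37.8 and 37.9 to 40.4 CPM, against 6.42 to 8.80 CPM. The 6 leukocyte markers summed to 35.0 to 36.5 and 25.5 to 26.1 CPM, against 16.9 to 17.3 CPM. LUM averaged 20.8 and 22.9 CPM, against 6.40 CPM, SERPINA1 36.9 and 39.2 CPM, against 5.99 CPM, and LYZ 34.9 and 24.8 CPM, against 16.9 CPM, while COL1A2, ALB and CD3E were at 0.216 CPM or less in each group. The part of these shifts was not tested.

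Of the 8 fatty acid genes, 7 fell in knockout cells without drug. FASN had 716, 679 and 681 CPM with guide 1 and 636, 613 and 636 CPM with guide 2, against 1167, 1210 and 1168 CPM in control cells (log2 -0.84 ± 0.035, adjusted p = 9.69e-21). SCD had 732, 733 and 726 CPM with guide 1 and 675, 649.5 and 653 CPM with guide 2, against 1087, 1119 and 1101 CPM in control cells (log2 -0.67 ± 0.023, adjusted p = 4.9e-29). For both, every knockout library lay below every control library. ACSL3 had 341, 336 and 345 CPM with guide 1 and 228, 232 and 225 CPM with guide 2, against 471, 478 and 489.5 CPM in control cells, and the guides differed from each other (guide 2 minus guide 1, log2 -0.58 ± 0.031, adjusted p = 4.4e-20). FADS2, ACACA, ACLY and FADS1 fell by 0.69, 0.50, 0.44 and 0.25 on the log2 scale, and ELOVL6 was not called (log2 -0.02 ± 0.03, adjusted p = 0.571).

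SREBF2 (ENSG00000198911, chromosome 22, 41833079 to 41907308, plus strand), the regulator of the sterol genes, was lower too, with 136, 134 and 135 CPM with guide 1 and 124, 123 and 127 CPM with guide 2, against 190.0, 194 and 195 CPM in control cells (log2 -0.57 ± 0.031, adjusted p = 5.18e-21). INSIG1 had 65.4, 63.6 and 62.3 CPM with guide 1 and 59.2, 55.4 and 57.4 CPM with guide 2, against 80.9, 84.9 and 84.3 CPM in control cells (log2 -0.46 ± 0.031, adjusted p = 5.38e-18). INSIG2 was higher at 17.5 ± 0.289 CPM with guide 1 and 19.3 ± 0.891 CPM with guide 2, against 13.2 ± 0.971 CPM in control cells. SCAP fell by 0.19, and SREBF1 was not called (log2 0.05 ± 0.044, adjusted p = 0.34) except in 1 alternative fit (adjusted p = 0.023). In the mevalonate steps 4 of 7 genes fell and 2 rose. FDPS was at 71.4 ± 3.13 and 72.5 ± 1.85 CPM, against 93.4 ± 4.01 CPM. PMVK was higher at 41.6 ± 1.08 and 41.6 ± 0.853 CPM, against 28.6 ± 1.53 CPM. HMGCS1 had 37.3, 41.3 and 36.3 CPM with guide 1 and 39.8, 38.4 and 36.3 CPM with guide 2, against 46.9, 44.4 and 43.2 CPM in control cells (log2 -0.23 ± 0.04, adjusted p = 2.95e-06). MVD (log2 -0.13 ± 0.055) and MVK (0.14 ± 0.047) were called, but MVD lost the call in 3 alternative fits and 6 of the fits that left out 1 library (adjusted p up to 0.23) and MVK without replicate 1 of control cells in DMSO (adjusted p = 0.0982).

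Of the 11 genes from squalene onward, 7 fell and 2 rose in knockout cells without drug. FDFT1 was at 138 ± 1.70 CPM with guide 1 and 125 ± 1.47 CPM with guide 2, against 188 ± 6.72 CPM in control cells (log2 -0.52 ± 0.027, adjusted p = 6.85e-22). SQLE fell by 0.33, DHCR7 by 0.23 and CYP51A1, an uncertain gene here, by 0.56. MSMO1 was called at -0.11 ± 0.044, a call lost in 1 alternative fit and 7 of the fits that left out 1 library (adjusted p up to 0.199). TM7SF2 had 12.0, 10.9 and 12.3 CPM with guide 1 and 13.0, 11.4 and 13.3 CPM with guide 2, against 7.56, 8.55 and 7.75 CPM in control cells (log2 0.61 ± 0.061, adjusted p = 4.57e-12). Of the transport genes, MYLIP had 17.3, 16.0 and 15.7 CPM with guide 1 and 14.5, 14.5 and 14.7 CPM with guide 2, against 24.4, 23.8 and 23.8 CPM in control cells (log2 -0.64 ± 0.04, adjusted p = 6.4e-19). ABCG1 had 17.3, 17.9 and 16.2 CPM with guide 1 and 20.1, 19.5 and 20.1 CPM with guide 2, against 12.7, 13.4 and 14.2 CPM in control cells (log2 0.46 ± 0.054, adjusted p = 2.64e-10). ABCA1 was 1.22-fold higher, and STARD4 was not called (log2 0.09 ± 0.079, adjusted p = 0.327) except in 1 alternative fit (adjusted p = 0.00434). Of the 51 further pathway genes tested, 25 were higher and 13 lower, against 29.3% and 28.6% of all genes. They included ACSL5, which activates long-chain fatty acids, at 6.96 CPM with guide 1 and 11.0 CPM with guide 2, against 1.53 CPM in control cells.

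Under drug, several genes of the sterol steps stood above control in knockout cells, among them DHCR7, MSMO1, EBP, LSS and NSDHL, while SREBF2, INSIG1 and 6 of 8 fatty acid genes stayed below. In trametinib 13 of the 36 genes were higher and 13 lower in knockout cells, against 27.1% and 28.8% of all genes. In vemurafenib 18 were higher and 12 lower, against 27.3% and 28.3%. With each guide alone, 11 were higher and 11 lower in trametinib, against 21.1% and 21.8% of all genes. In vemurafenib 13 were higher and 11 lower with each guide, against 21.7% and 21.6%. In both drugs DHCR7 was higher in knockout cells, with 40.0, 43.3 and 41.1 CPM with guide 1 and 47.5, 47.1 and 47.1 CPM with guide 2, against 28.3, 26.1 and 29.5 CPM in control cells in trametinib (log2 0.66 ± 0.038, adjusted p = 1.64e-20). In vemurafenib it had 49.3, 53.1 and 50.1 CPM with guide 1 and 52.5, 55.7 and 51.7 CPM with guide 2, against 32.9, 30.4 and 31.3 CPM in control cells. All knockout libraries lay above all control libraries in each drug. STARD4 had 25.6, 21.6 and 24.6 CPM with guide 1 and 32.4, 31.6 and 29.2 CPM with guide 2, against 17.3, 17.2 and 13.7 CPM in control cells in trametinib. In vemurafenib it had 25.8, 25.0 and 25.1 CPM with guide 1 and 25.6, 30.7 and 36.6 CPM with guide 2, against 12.9, 12.7 and 14.4 CPM in control cells (log2 1.07 ± 0.091, adjusted p = 1.04e-09). Its knockout libraries also lay above all control libraries. ELOVL6 had 45.9, 50.8 and 51.1 CPM with guide 1 and 61.1, 60.8 and 59.9 CPM with guide 2, against 34.5, 33.8 and 32.7 CPM in control cells in trametinib. In vemurafenib it had 69.3, 65.5 and 69.9 CPM with guide 1 and 82.0, 85.4 and 86.9 CPM with guide 2, against 43.3, 43.6 and 43.6 CPM in control cells (log2 0.81 ± 0.032, adjusted p = 1.22e-26). In each drug guide 2 stood above guide 1 and both above control. MSMO1, LSS, EBP, NSDHL and MVK were higher in both drugs, MSMO1 by 0.32 and 0.54 on the log2 scale and LSS by 0.39 and 0.21. HMGCS1 was called higher in vemurafenib (log2 0.23 ± 0.043) and not in trametinib (0.09 ± 0.042, adjusted p = 0.0549), but 5 alternative fits and 3 of the fits that left out 1 library (adjusted p 0.0274 to 0.0489) called it higher in trametinib as well, among them the fit with the replicate block (adjusted p = 0.0489). The call of HMGCS1 in trametinib thus depends on the fit. Without replicate 3 of guide 2 in vemurafenib, 17 of the 36 genes were higher and 11 lower in knockout cells in that drug.

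Other genes, and NSDHL and MVK of those above, kept the direction they had in DMSO. The 12 genes called lower in knockout cells in all 3 treatments were SREBF2, SCAP, INSIG1, FASN, SCD, ACLY, ACACA, FADS1, FADS2, FDFT1, MVD and MYLIP, and the 6 called higher in all 3 were ABCA1, ABCG1, INSIG2, MVK, NSDHL and PMVK. SREBF2 had 128, 136 and 129.7 CPM with guide 1 and 132, 134 and 137 CPM with guide 2, against 174, 157 and 177 CPM in control cells in trametinib. In vemurafenib it had 129.9, 136 and 137 CPM with guide 1 and 145, 139 and 127 CPM with guide 2, against 174, 173 and 166 CPM in control cells (log2 -0.33 ± 0.032, adjusted p = 7.95e-13). In each drug every knockout library of SREBF2 lay below every control library. INSIG1 had 44.8, 44.8 and 44.9 CPM with guide 1 and 41.7, 43.4 and 40.0 CPM with guide 2, against 60.3, 60.4 and 61.3 CPM in control cells in trametinib (log2 -0.49 ± 0.032, adjusted p = 1.54e-18). FASN had 346, 355 and 342 CPM with guide 1 and 343, 365 and 368 CPM with guide 2, against 468, 449 and 500.2 CPM in control cells in trametinib. In vemurafenib it had 404, 425 and 421 CPM with guide 1 and 427, 436 and 374 CPM with guide 2, against 592, 610.2 and 566 CPM in control cells (log2 -0.51 ± 0.035, adjusted p = 1.88e-14). Libraries of knockout and control cells did not overlap for FASN in either drug, nor for INSIG1 in trametinib. SCD had 635, 673 and 671 CPM with guide 1 and 708, 701 and 689 CPM with guide 2, against 743, 731 and 736 CPM in control cells in trametinib (log2 -0.12 ± 0.023, adjusted p = 2.86e-05). FDFT1 was lower in knockout cells by 0.47 in trametinib and 0.58 in vemurafenib. ABCG1 had 23.6, 21.3 and 21.0 CPM with guide 1 and 24.6, 27.5 and 26.1 CPM with guide 2, against 12.9, 12.0 and 13.5 CPM in control cells in vemurafenib (log2 0.90 ± 0.054, adjusted p = 6.16e-20). ABCA1 was 1.38-fold higher in trametinib and 1.20-fold in vemurafenib. MVD lost its call in vemurafenib in 2 alternative fits and 5 of the fits that left out 1 library (adjusted p up to 0.215), and in trametinib MVD lost it in 1 of the fits that left out 1 library (adjusted p = 0.0729) and INSIG2 in 1 of the fits that left out 1 library (adjusted p = 0.0655). Of 16 cell cycle genes, 5 were higher and 5 lower in knockout cells in trametinib, against 27.1% and 28.8% of all genes, and 10 higher and 3 lower in vemurafenib, against 27.3% and 28.3%. In trametinib the 8 melanocyte lineage genes summed to 746 to 767 and 458 to 472 CPM with guides 1 and 2, against 2235 to 2369 CPM in control cells, and in vemurafenib to 779 to 798 and 457 to 486 CPM with guides 1 and 2, against 2312 to 2346 CPM in control cells. Lineage sums were thus below control with both guides in each drug, without overlap. The 6 fibroblast markers summed to 55.2 to 59.3 and 78.0 to 81.8 CPM with guides 1 and 2, against 20.3 to 21.9 CPM in control cells, in trametinib, and the 5 hepatocyte markers to 38.9 to 41.4 and 41.9 to 43.7 CPM with guides 1 and 2, against 7.29 to 8.44 CPM in control cells. In vemurafenib the fibroblast markers summed to 56.2 to 56.9 and 69.9 to 73.0 CPM with guides 1 and 2, against 20.0 to 21.8 CPM in control cells, and the hepatocyte markers to 36.4 to 38.1 and 37.7 to 40.0 CPM with guides 1 and 2, against 7.16 to 7.80 CPM in control cells. The leukocyte markers summed to 15.8 to 18.1 and 13.5 to 14.5 CPM with guides 1 and 2, against 7.29 to 8.29 CPM in control cells, in trametinib, and to 18.8 to 19.9 and 15.3 to 16.6 CPM with guides 1 and 2, against 8.83 to 9.96 CPM in control cells, in vemurafenib. All 3 marker sums lay above control with both guides in each drug, carried mostly by LUM, COL1A1, SERPINA1 and LYZ. In trametinib the 8 MAPK output genes summed to 341 to 362 and 233 to 241 CPM with guides 1 and 2, against 347 to 366 CPM in control cells. In vemurafenib they summed to 847 to 882 and 614 to 684 CPM with guides 1 and 2, against 673 to 736 CPM in control cells. Mitochondrial reads made up 3.13% to 3.52% and 3.29% to 3.58% with guides 1 and 2, against 2.05% to 2.38% in control cells, in trametinib, and 3.4% to 3.6% and 3.16% to 3.6%, against 2.21% to 2.34%, in vemurafenib. The part of these shifts in the lipid gene values was not tested.

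**Figure D4:**
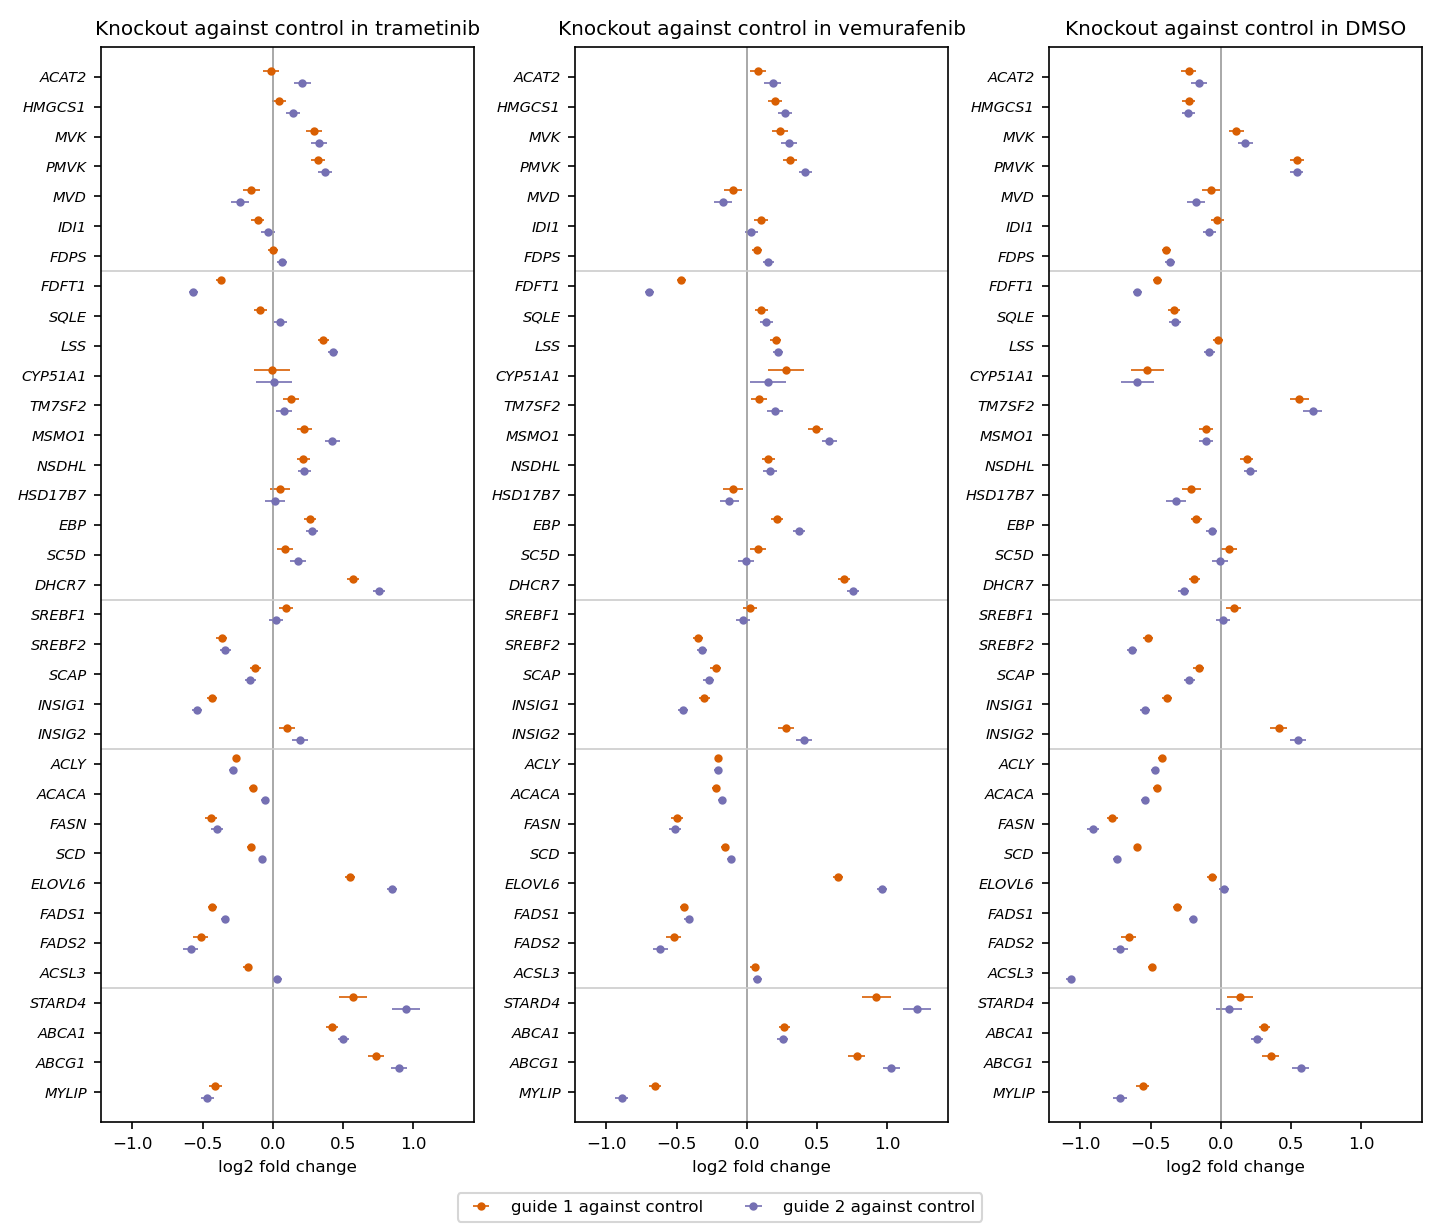
Points give the log2 fold change of guide 1 and of guide 2 cells against control cells for 35 genes in trametinib, vemurafenib and DMSO, with bars for the standard error of the fit; lines part the roles. DHCR7, ELOVL6 and STARD4 lie to the right of 0 in both drugs with each guide, and SREBF2, INSIG1, FASN, FADS2 and MYLIP lie to the left in all 3 treatments.

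Within knockout cells, trametinib lowered 21 of the 36 genes and raised 8, against 34.3% and 37.2% of all genes. Vemurafenib lowered 21 and raised 10, against 33.1% and 36%. The difference between the responses, knockout minus control, was tested as an interaction. For trametinib it was positive and called for 22 of the 36 genes and negative for 4, against 20.8% and 23.2% of all genes, with a median of 0.26 on the log2 scale over the 36 genes and -0.02 over all. For vemurafenib it was positive for 18 and negative for 4, against 20% and 22.4%, with medians of 0.24 and -0.01. Without replicate 3 of guide 2 in vemurafenib, 22 genes fell and 9 rose with vemurafenib in knockout cells, and 18 interactions were positive and 3 negative. The interaction was positive for all 16 cell cycle genes too with each drug (median 0.58 and 0.68). Of the 51 further pathway genes, 18 had a positive and 15 a negative called interaction with trametinib, and 16 and 16 with vemurafenib, where 20.8% and 23.2%, and 20% and 22.4%, of all genes did. The part of the cell cycle shift in the lipid gene values was not tested. All responses of one population share its DMSO libraries. The interactions with the 2 drugs thus share DMSO libraries and are not independent of each other.

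The levels behind these interactions differed between genes. DHCR7 changed by log2 -0.89 ± 0.029 with trametinib in knockout cells and -1.78 ± 0.042 in control cells, an interaction of 0.89 ± 0.051 (adjusted p = 3.86e-20), and its level under drug was higher in knockout cells. SCD changed by -0.03 ± 0.019 in knockout cells, which did not pass the test (adjusted p = 0.156), and -0.58 ± 0.027 in control cells, an interaction of 0.55 ± 0.033 (adjusted p = 3.43e-19). Its level in DMSO was already 1.59-fold lower in knockout cells. ACSL3 combined -0.74 ± 0.022 in knockout cells, the mean of both guides, with -1.59 ± 0.032 in control cells under vemurafenib. With guide 1 alone it fell further than that mean, by 1.04 on the log2 scale. In DMSO its level with guide 2 was below that with guide 1 (log2 -0.58). The levels under that drug were 166 and 168 CPM with the guides and 159.7 CPM in control cells. FASN fell by 0.90 with trametinib in knockout cells and by 1.32 in control cells, ending below control. ELOVL6 fell by 0.22 with vemurafenib in knockout cells and by 1.05 in control cells (interaction 0.83 ± 0.044, adjusted p = 2.63e-21). For LSS and ACACA the responses had opposite signs, each called: with trametinib LSS was 0.13 ± 0.027 in knockout and -0.32 ± 0.038 in control cells, and ACACA 0.10 ± 0.021 and -0.30 ± 0.029. With vemurafenib the signs of SREBF2 were opposite as well (0.06 ± 0.026 and -0.18 ± 0.037), and its call in knockout cells was lost in 8 of the fits that left out 1 library (adjusted p up to 0.158). ABCG1, whose call with trametinib in control cells depended on the fit, rose in knockout cells by 0.48 with trametinib and 0.37 with vemurafenib, with an interaction of 0.36 ± 0.074 and 0.44 ± 0.075. TM7SF2 rose by 1.45 with trametinib in knockout cells and 1.95 in control cells (interaction -0.50 ± 0.078), from a higher start in knockout cells in DMSO. INSIG1 fell by 0.48 in knockout and 0.46 in control cells with trametinib, and its interaction was not called (log2 -0.03 ± 0.045, adjusted p = 0.698); the same held for SREBF1 (0.00 ± 0.062, adjusted p = 0.971).

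**Figure D5:**
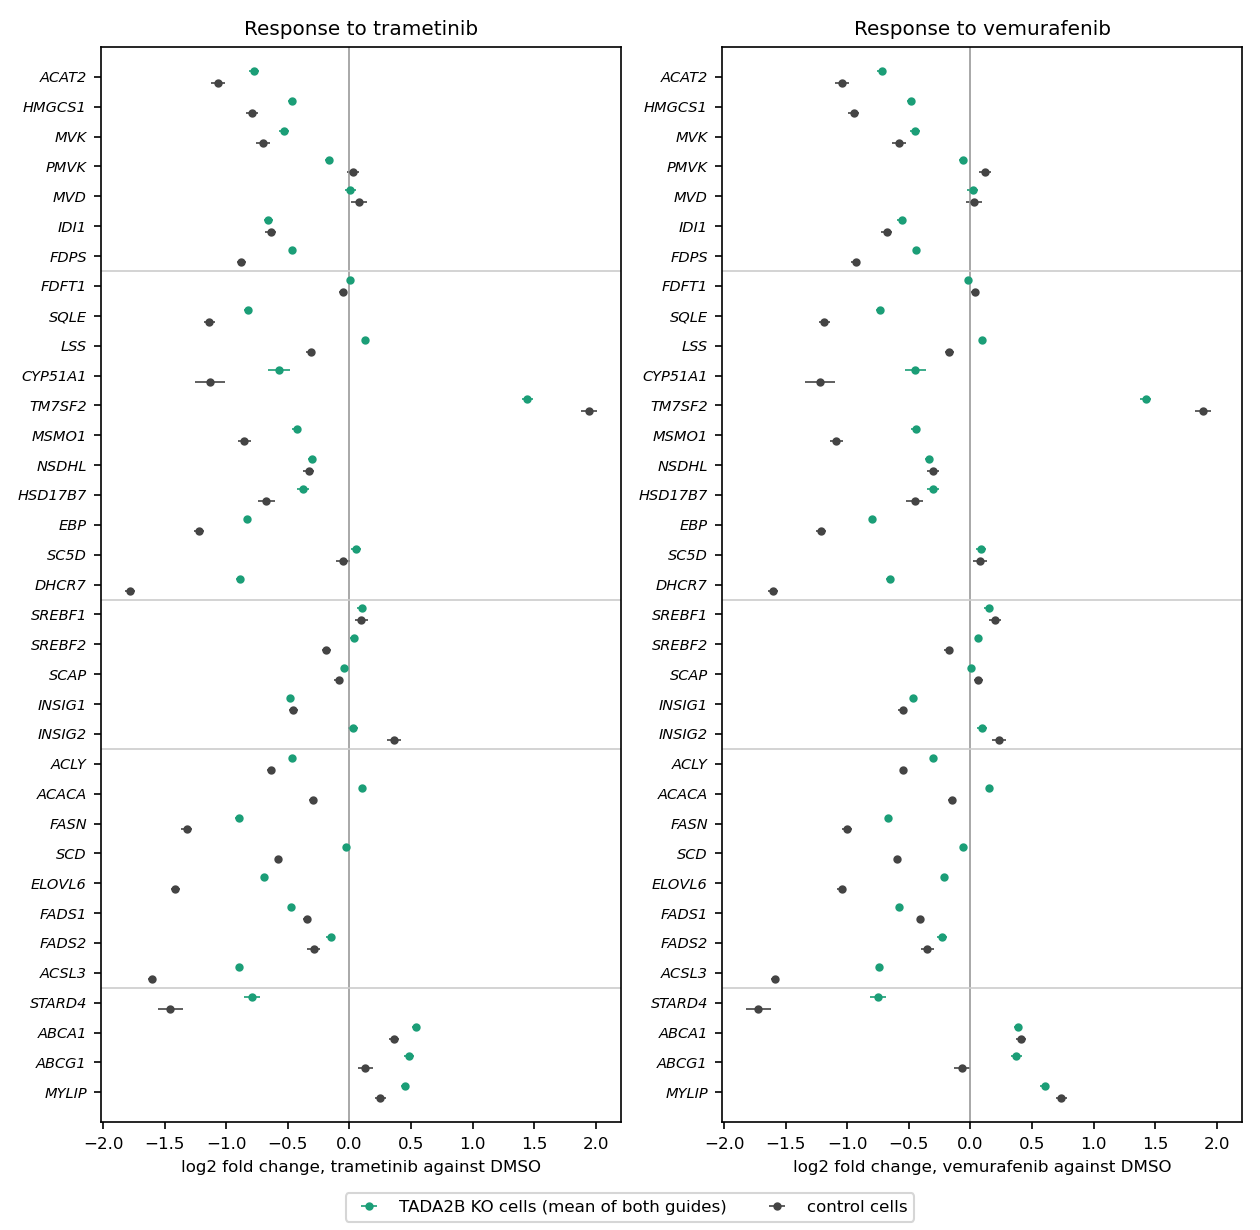
Points give the log2 fold change with trametinib (left) and vemurafenib (right) in TADA2B knockout cells (mean of both guides) and in control cells for 35 genes, with bars for the standard error of the fit. Among synthesis genes the point of knockout cells often lies nearer 0 than that of control cells, as for DHCR7, ELOVL6 and ACSL3. The same holds for the carrier STARD4, while the points of INSIG1 and of IDI1 nearly coincide with trametinib.

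The guides differed from each other in 9 of the 36 genes in DMSO, 13 in trametinib and 7 in vemurafenib, against 11.9%, 19.7% and 16% of all genes. FDFT1 was lower with guide 2 in all 3 treatments, by 0.14, 0.20 and 0.22 on the log2 scale in DMSO, trametinib and vemurafenib, and so was INSIG1, by 0.15, 0.11 and 0.15. ABCG1 was higher with guide 2, by 0.22, 0.16 and 0.25. In trametinib these calls were fragile: that of INSIG1 was lost in 1 alternative fit and 5 of the fits that left out 1 library (adjusted p up to 0.251) and that of ABCG1 in 5 of the fits that left out 1 library (adjusted p up to 0.206), and in DMSO that of ABCG1 was lost in 1 of the fits that left out 1 library (adjusted p = 0.0963). ELOVL6 was higher with guide 2 in both drugs (0.30 and 0.31), and ACSL3 was lower with guide 2 in DMSO and higher in trametinib (0.21). STARD4 was higher with guide 2 in trametinib (0.38, adjusted p = 0.00614). It was called in vemurafenib too, a call lost in 3 alternative fits and 5 of the fits that left out 1 library (adjusted p up to 0.225). No gene had called effects of opposite sign with the guides in any treatment. Without replicate 1 of guide 1 in trametinib the count in that drug was 7, as it was without replicate 1 of guide 2, and without replicate 1 of guide 1 in DMSO it was 5 there. Without replicate 3 of guide 2 in vemurafenib it was 6 in that drug.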

How the data were processed

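RNA-seq of 27 A375 libraries was analysed from 1 table of gene counts. The authors deposited these counts as whole numbers of reads per Ensembl gene, not normalized. The submitters' processing notes name HISAT2, HTSeq, bcl2fastq and hg38, without roles. Totals were 67502300 to 92513726 counts a library. Intervals between libraries cover the spread of these libraries only.

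From the counts, edgeR 4.0.16 in R 4.3.3 gave TMM scaling, its filter on low counts (25199 of 58721 genes kept) and the robust quasi-likelihood test on 9 group means with 18 residual degrees of freedom. Benjamini-Hochberg adjusted p under 0.05 over all genes tested was a call. Knockout effects are means of both guides. Errors beside log2 values are standard errors of the fit, and CPM are scaled by TMM. RPKM used the exon length of GENCODE release 29. Alternatives used DESeq2 1.42.0 and limma 3.58.1. The edgeR fit was also run on a single set of simulated counts with known changes, for trametinib against DMSO in control cells only. The interactions and the alternative fits were not tried on simulated counts.

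The 36 genes and all lists were chosen with earlier results of these data known. Library values are given for up to 2 genes per role with the largest called change and no overlap of libraries, and for SREBF1, SREBF2, INSIG1, HMGCS1, FASN, SCD and ABCA1; a few more were added after their values were seen. Of other pathway genes, up to 3 per comparison were to be named; some are not reported here.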

Additional observations from a re-analysis of the deposited data

Results flagged for a closer look

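For trametinib, the response of TADA2B knockout cells minus that of control cells passed the test of the difference itself (edgeR's quasi-likelihood test of the interaction, Benjamini-Hochberg adjusted p under 0.05) for 26 of the 36 genes, each on the log2 scale. The positive differences were 0.89 for DHCR7, 0.72 for ELOVL6, 0.70 for ACSL3, 0.67 for STARD4, 0.56 for CYP51A1, 0.55 for SCD, 0.45 for LSS, 0.43 for MSMO1, 0.42 for FASN, 0.41 for FDPS and 0.40 for ACACA. Smaller positive differences were 0.39 for EBP, 0.36 for ABCG1, 0.32 for HMGCS1, 0.31 for SQLE, 0.30 for HSD17B7, 0.29 for ACAT2, 0.22 for SREBF2, 0.20 for MYLIP, 0.18 for ABCA1, 0.17 for MVK and 0.17 for ACLY. The negative differences were -0.50 for TM7SF2, -0.33 for INSIG2, -0.19 for PMVK and -0.13 for FADS1.

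For vemurafenib, the response of TADA2B knockout cells minus that of control cells passed the test of the difference itself (edgeR's quasi-likelihood test of the interaction, Benjamini-Hochberg adjusted p under 0.05) for 22 of the 36 genes, each on the log2 scale. The positive differences were 0.97 for STARD4, 0.95 for DHCR7, 0.84 for ACSL3, 0.83 for ELOVL6, 0.77 for CYP51A1, 0.64 for MSMO1, 0.53 for SCD, 0.49 for FDPS and 0.46 for HMGCS1. Smaller positive differences were 0.45 for SQLE, 0.44 for ABCG1, 0.41 for EBP, 0.34 for FASN, 0.32 for ACAT2, 0.30 for ACACA, 0.27 for LSS, 0.24 for SREBF2 and 0.24 for ACLY. The negative differences were -0.46 for TM7SF2, -0.18 for PMVK, -0.18 for FADS1 and -0.13 for MYLIP.

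Each value compares 6 knockout libraries per treatment, over both guides, with 3 control libraries per treatment. The labels name only 1 control guide. A knockout effect, here and above, thus cannot be told apart from a difference between that population and the others. The guides can differ within such a value. With trametinib ACSL3 changed by log2 -1.29 in guide 1 cells, against -0.90 over both guides. The MVK difference with trametinib and the MYLIP difference with vemurafenib lost their calls most often among the alternatives tried. The values of CYP51A1 and HSD17B7 are uncertain, for the shared exons or pseudogene copies described above. No formal test for an outlying sample was run, since every group has 3 libraries. Replicate 3 of guide 2 in vemurafenib stood apart from its group by chi-square, as described above.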

How the results depend on the processing

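No single gene among the 36 changed direction with a call under the alternatives run (DESeq2's size factors, no filter or a filter of 1 CPM in 3 libraries, limma voom, DESeq2's Wald test, a fit of the groups compared alone, the replicate block, and leaving out each library). Counts of called genes stayed within 1.5 times of the reported ones except as follows. Vemurafenib against trametinib gave 5 lower genes with DESeq2's Wald test, against 3, and 1 to 3 lower and 5 to 10 higher genes with 1 library left out. With 1 library left out, negative interactions with vemurafenib numbered 2 to 4 (2 without replicate 3 of control cells in DMSO), and genes that differed between guides 5 to 8 in DMSO and 7 to 11 in trametinib. The cause was not tested. Across groups the replicate numbers gave no sign of pairing. Deviations from the group means of same-numbered libraries correlated between -0.219 and 0.252 over 108 pairs (median 0.0079). Libraries of different number correlated between -0.212 and 0.258 over 216 pairs (median -1.92e-05). Pairs within a single population were not looked at separately. With the replicate number as a block, 24 genes fell with trametinib in control cells and 22 in knockout cells without drug, and 3 single calls were lost and 1 gained (HMGCS1 in knockout cells in trametinib) of 468. NPC1L1, at 1 to 28 counts, is limited by depth.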
